A study of Arabidopsis thaliana with 6 samples.

Results

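Glutathione transferases of the tau (GSTU) and phi (GSTF) classes are plant enzymes that join the tripeptide glutathione to electrophilic compounds. They are known for the detoxification of herbicides and of reactive products of plant metabolism, and some bind or carry small molecules without conjugating them. Conjugates are moved into the vacuole by transporters of the ABCC family and taken apart there. Many genes of both classes lie in tandem arrays, and several are induced by pathogens, salicylic acid, oxylipins or oxidative stress.

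The 35 genes described here, 27 of the tau class and 8 of the phi class, were chosen by locus identifier and all 35 have a row among the 27416 genes of the deposited table. The RNA came from 7-day-old wild-type seedlings of Arabidopsis thaliana, with water as the control (3 libraries) or after 200 nM of the secreted signalling peptide CLE9 (3 libraries). The sources used here state neither the duration of the treatment nor whether replicates were grown separately, and p-values therefore reflect only library-to-library spread, which can be technical. Levels are the deposited FPKM, fragment counts scaled by transcript length and library size, so genes can be set side by side.

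The first principal component (71.0% of the variance) separated the replicate 2 libraries, water and CLE9 alike, from the rest. On a list of 10 touch and wounding genes, control replicate 2 exceeded the remaining controls by a median of 4.77 log2 units, and CLE9 replicate 2 the remaining CLE9 libraries by 3.17. All 8 shoot markers, nuclear photosynthesis genes, reached 1 FPKM or more in each library. Their summed level was 10153 FPKM in CLE9 replicate 2 and between 25358 and 34390 FPKM in the other 5. Of 8 root markers, between 6 and 8 reached 1 FPKM in 5 libraries and 2 did in CLE9 replicate 2, where their summed level was 32.9 FPKM. It was 98.1 and 139.7 FPKM in CLE9 replicates 1 and 3, 47.8 FPKM in control replicate 2 and 172 and 194 FPKM in the other controls. No shoot or root marker was listed at 0. In RNA of whole seedlings, fewer cells of a type and less RNA per cell cannot be told apart.

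Summed over the 8 phi genes, transcripts were more abundant with CLE9, and the tau genes were divided. No member of either class passed the test with group only. The summed level of the 8 phi genes was 952, 2691 and 1016 FPKM in control replicates 1, 2 and 3, and 3545, 7121 and 3605 FPKM in the CLE9 libraries. Each CLE9 library thus lay above each control, and control replicate 2 lay nearest to the CLE9 libraries. The 27 tau genes summed to 341, 313 and 342 FPKM in controls and to 444, 226 and 524 FPKM with CLE9, so the groups overlapped, with CLE9 replicate 2 lowest of all 6. Phi genes made up 79.3 ± 8.89% of the summed level of both classes in controls and 91.0 ± 5.16% with CLE9 (SD, n = 3 each). No test was run on these sums, since the members were chosen with earlier results known.

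**Figure D1:**
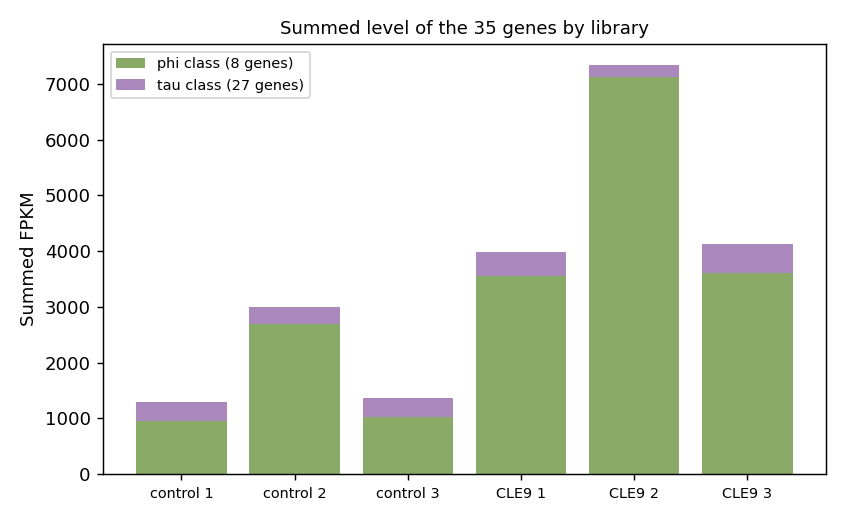
Summed FPKM of the 8 phi class genes and the 27 tau class genes in each of the 6 libraries (stacked bars, 1 library per bar). The phi part is larger in each CLE9 library (3545 to 7121 FPKM) than in each control (952 to 2691 FPKM).

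A change below is the CLE9 mean less the control mean of log2(FPKM + 1), with its standard error, and is too small for genes around 1 FPKM or less. The test was limma, run on every gene averaging at least 1 FPKM, with Benjamini-Hochberg adjustment over all 17812 genes tested, and an adjusted p under 0.05 counted as a call. This filter was passed by 28 members, all 8 of the phi class and 20 of 27 of the tau class. With group only, limma called 0 of the 28 members, against 0.00561% of all genes tested (1 gene), and 8 of the 28 had an unadjusted p under 0.05, against 8.90% of all genes. Of these, 6 were higher, against 5.83% of all genes, and 2 lower, against 3.07%. The smallest adjusted p among members was 0.255, for GSTU12. With the replicate number as a block, 1 of the 28 passed, GSTU14, which fell, against 1.99% of all genes called (1.75% higher, 0.247% lower).

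The median change of the 8 phi genes was 1.29 and that of the 20 tau genes 0.01, beside -0.055 over all genes tested. Of the phi genes 7 had a change above 0 and 1 below, and of the tau genes 10 and 10, where 42.6% of all genes tested had a change above 0. Setting each CLE9 library against the control of its number (a pair), 6 of 8 phi genes and 5 of 20 tau genes were higher in all 3 pairs, against 19.8% of all genes. Of the 8 phi genes 0, and of the 20 tau genes 7, were lower in each pair, against 26% of all genes. The groups did not overlap, with CLE9 above, for 3 phi and 2 tau genes, against 8.51% of all genes, and with CLE9 below for 0 phi and 3 tau genes, against 7.47%. The pairs were not alike for the tau class, whose median difference was 0.33, -0.48 and 0.07 in pairs 1, 2 and 3, while that of the phi class was 1.25, 1.33 and 1.45.

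Without both replicate 2 libraries, 6 of the 8 phi genes and 6 of the 20 tau genes were called higher, against 8.41% of all genes, and 0 phi and 2 tau genes were called lower, against 2.95%. The phi genes called were GSTF2, GSTF3, GSTF6, GSTF7, GSTF8 and GSTF10. The tau genes called higher were GSTU6, GSTU8, GSTU10, GSTU12, GSTU13 and GSTU24, and those called lower were GSTU14 and GSTU26. That comparison sets 2 libraries against 2.

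**Figure D2:**
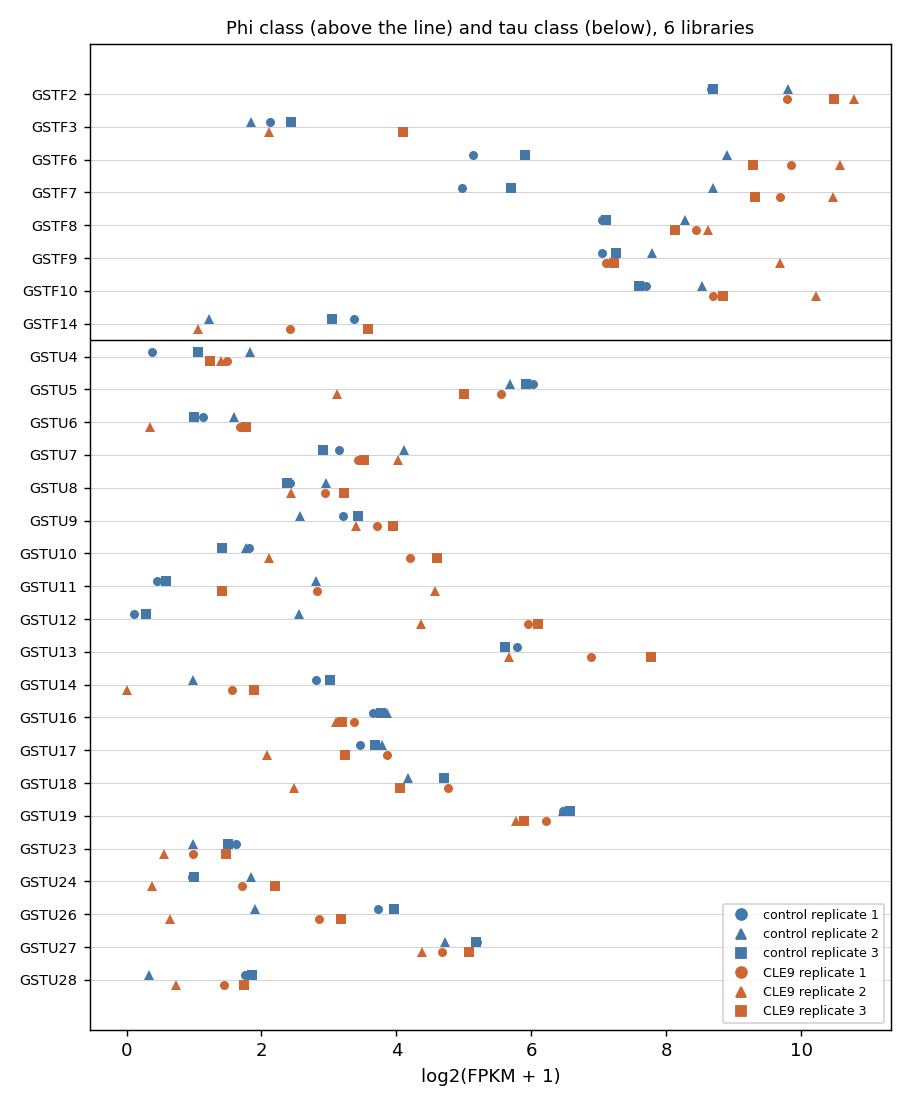
Level of each of the 28 tested members in each library as log2(FPKM + 1), phi class above the line and tau class below, with colour for the group and marker shape for the replicate. The CLE9 libraries lie to the right of all controls for GSTF6, GSTF7, GSTF10, GSTU10 and GSTU12, and to the left for GSTU5, GSTU16 and GSTU19.

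The phi class holds the pair GSTF6 and GSTF7, which lie next to each other on the minus strand of chromosome 1 (TAIR10, 661177 to 662456 and 658657 to 659771). GSTF6 takes part in camalexin synthesis, joining glutathione to an indole intermediate, and both genes are known as genes of the pathogen response. GSTF6 (AT1G02930) was at 34.1, 478 and 59.1 FPKM in control replicates 1, 2 and 3 and at 925, 1533 and 624 FPKM with CLE9. GSTF7 (AT1G02920) had 30.5, 414 and 50.9 FPKM in the water libraries, against 822, 1420.4 and 639 FPKM in the CLE9 libraries. In both, every CLE9 library was above every control, and control replicate 2 was far above the other controls, by 3.38 log2 units for GSTF6 and 3.36 for GSTF7. The change was 3.26 ± 1.00 for GSTF6 (SE, limma adjusted p = 0.422 by group only, 0.0628 with the block) and 3.37 ± 0.98 for GSTF7 (adjusted p = 0.390 and 0.0566). Within the pairs GSTF6 was higher by 4.72, 1.68 and 3.38 and GSTF7 by 4.71, 1.77 and 3.62 log2 units. Without control replicate 2 both passed (limma adjusted p = 0.0357 and 0.0324, changes of 4.39 and 4.49), where 204 of 17812 genes were called. Without any other single library neither passed (limma adjusted p of at least 0.510 for GSTF6 and 0.483 for GSTF7). Without both replicate 2 libraries the changes were 4.05 and 4.17 (adjusted p = 0.00152 and 0.000882).

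Reads of GSTF6 and GSTF7 may have been divided between them. Their coding sequences, 627 and 630 bases, were identical at 94.3% of aligned positions, with an identical run of up to 116 bases, and the deposited level of GSTF6 was between 0.976 and 1.161 times that of GSTF7 in each library. The sum of both averaged 356 ± 466 FPKM under water and 1988 ± 871 FPKM under CLE9 (SD, n = 3), a change of 3.32 ± 1.00 (limma adjusted p = 0.413 by group only, 0.0627 with the block). The sequence upstream of GSTF7 is shown here with those of GSTU12 and GSTU10 of the tau class, as genes with large changes whose groups did not overlap, a choice made after the values were seen. Each line gives the 250 bases before the annotated gene start in the RefSeq annotation of TAIR10.1, 5′ to 3′ on the gene's strand, with matches to TTGACC or TTGACT (the W box, bound by WRKY factors), TGACG (bound by TGA factors), GCCGCC (bound by ERF factors) and CACGTG (the G box) on either strand in capitals.
GSTF7, chr1:659981-660230, minus strand: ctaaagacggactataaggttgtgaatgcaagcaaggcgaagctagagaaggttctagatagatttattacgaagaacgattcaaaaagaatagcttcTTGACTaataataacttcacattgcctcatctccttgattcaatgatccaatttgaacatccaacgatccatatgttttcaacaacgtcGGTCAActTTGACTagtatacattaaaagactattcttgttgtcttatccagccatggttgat
GSTU12, chr1:26335631-26335880, minus strand: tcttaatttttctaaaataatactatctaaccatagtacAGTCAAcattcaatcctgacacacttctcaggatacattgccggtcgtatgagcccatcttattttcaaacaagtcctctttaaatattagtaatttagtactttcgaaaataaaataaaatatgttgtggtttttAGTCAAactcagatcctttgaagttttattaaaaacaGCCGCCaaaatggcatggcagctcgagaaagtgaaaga
GSTU10, chr1:28024861-28025110, minus strand: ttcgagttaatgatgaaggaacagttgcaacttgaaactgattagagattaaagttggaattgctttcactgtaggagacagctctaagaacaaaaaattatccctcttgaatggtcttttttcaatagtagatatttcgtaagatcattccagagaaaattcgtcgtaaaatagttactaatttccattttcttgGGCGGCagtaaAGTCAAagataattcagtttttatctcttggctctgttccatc

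Distances are from the RefSeq start, which for all 3 genes lies further upstream than the start in the deposited table. The deposited starts are 659771 for GSTF7, 26335558 for GSTU12 and 28024726 for GSTU10, and the bases between are not shown. GSTF7 held 3 W boxes, at 55, 63 and 152 bases before the RefSeq start. GSTU12 held 2 copies of the W box, at 75 and 211 bases, and GCCGCC at 38 bases, while GSTU10 held 1 W box at 43 bases and GCCGCC at 54 bases. Over windows of 250 bases before to 50 after the start, 20 of the 35 members (57.1%) held a W box, against 32.4% of 26718 genes. In these windows GSTU5 and GSTU19, whose CLE9 libraries lay below all controls, held 2 W boxes each, and GSTU16, also below, held none. GSTF6 held 2 and GSTF10 held 1, while GSTF2, GSTF8 and GSTU13, whose changes were above 0, held none. TGACG was found in 15 members (42.9%, against 23.1% of all), GCCGCC in 4 (11.4%, against 2.55%) and CACGTG in 3 (8.57%, against 7.79%). The 4 members with GCCGCC were GSTU10, GSTU12, GSTU13 and GSTF10. Matches of different motifs overlapped in 1 of the 35 windows. Tandem copies share sequence, so the members are not independent of each other, and a match describes letters and not a binding site.

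GSTF2 had the highest mean level of all members over the 6 libraries, 965 FPKM. It encodes a phi enzyme that also binds small molecules such as camalexin and indole compounds. GSTF2 (AT4G02520, TAIR10 chromosome 4, 1110452 to 1111660) reached 405, 896 and 413 FPKM without and 881, 1764 and 1433 FPKM with the peptide. The groups overlapped through control replicate 2, which lay just above CLE9 replicate 1, and each CLE9 library was above the control of its number. The change was 1.30 ± 0.46 (limma adjusted p = 0.492 by group only, 0.110 with the block), and 1.45 without both replicate 2 libraries (adjusted p = 0.0223).

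GSTF3, on chromosome 2 (851164 to 852222), is 94.5% identical to GSTF2 in coding sequence but was far lower. It measured 3.37, 2.61 and 4.44 FPKM under water and 15.95, 3.32 and 16.1 FPKM under CLE9. Here CLE9 replicate 2 lay among the controls while CLE9 replicates 1 and 3 lay above them. The change was 1.29 ± 0.57 (limma adjusted p = 0.599), and 1.81 without both replicate 2 libraries (adjusted p = 0.00204). GSTF2 and GSTF3 thus differed in CLE9 replicate 2, where GSTF2 was at its highest and GSTF3 was not, although reads may have passed between them. The change of their sum was 1.30 ± 0.46 (limma adjusted p = 0.487).

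GSTF8 (AT2G47730), whose promoter is a widely used marker of early stress responses, had 132, 308 and 137 FPKM in the water libraries, against 347, 393 and 279 FPKM in the CLE9 libraries. The lowest CLE9 library was below control replicate 2, so the groups overlapped. The change was 0.92 ± 0.39 (limma adjusted p = 0.584 by group only, 0.163 with the block), and 1.21 without both replicate 2 libraries (adjusted p = 0.00881). In the deposited table it shares 516 bases with AT2G47720 on the same strand, which was listed at 0 in all 6 libraries.

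GSTF9 and GSTF10 are neighbours on the plus strand of chromosome 2 (13138997 to 13140245 and 13141357 to 13142613), are 77.6% identical in coding sequence, and differed in the order of their libraries. GSTF10 (AT2G30870), also known as ERD13 from its early response to dehydration, reached 206, 370.3 and 193 FPKM without and 413, 1187 and 456 FPKM with the peptide. Its groups did not overlap, and the change was 1.30 ± 0.51 (limma adjusted p = 0.534 by group only, 0.0741 with the block). GSTF9 measured 131, 220.3 and 151 FPKM under water and 136, 819.6 and 148 FPKM under CLE9. GSTF9 was thus high in CLE9 replicate 2 alone, and the other CLE9 libraries lay among the controls. The GSTF9 change was 0.64 ± 0.73 with all libraries (limma adjusted p = 0.842), 0.02 without both replicate 2 libraries (adjusted p = 0.959) and -0.20 without CLE9 replicate 2. For GSTF10 the change without both replicate 2 libraries was 1.12 (adjusted p = 0.00796). The level of GSTF9 was between 0.595 and 0.785 times that of GSTF10 in the controls, 0.330 and 0.325 times in CLE9 replicates 1 and 3, and 0.690 times in CLE9 replicate 2. No test was run on this ratio.

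Among the phi class members described here, GSTF14 alone had a change below 0. It had 9.33, 1.33 and 7.29 FPKM in the water libraries, against 4.35, 1.08 and 10.9 FPKM in the CLE9 libraries, low in replicate 2 of both groups (change -0.20 ± 0.81, limma adjusted p = 0.965). Its sign turned with single libraries, to 0.45 without CLE9 replicate 2 and 0.21 without control replicate 1. The root markers were also low in both replicate 2 libraries, and their part in these values was not tested.

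**Figure D3:**
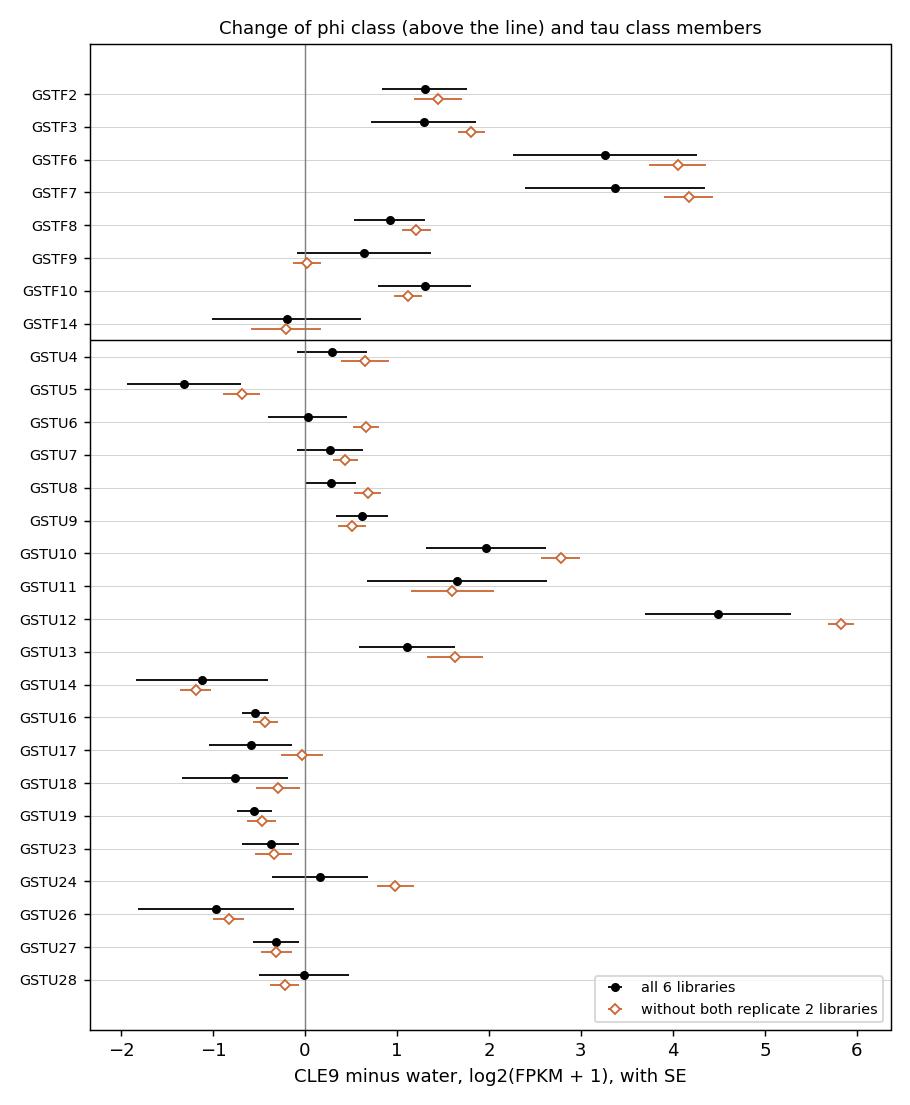
Change with CLE9 of each tested member on the log2(FPKM + 1) scale with its standard error, phi class above the line and tau class below. Filled circles use all 6 libraries and open diamonds leave out both replicate 2 libraries. The largest change is that of GSTU12, 4.49 with all libraries and 5.83 without both replicate 2 libraries.

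In the tau class the array of GSTU11 and GSTU12 on the minus strand of chromosome 1 held the largest change of all members. GSTU12 (AT1G69920, 26334250 to 26335558) reached 0.0765, 4.87 and 0.219 FPKM without and 60.6, 19.7 and 67.5 FPKM with the peptide. Every CLE9 library was above every control, although replicate 2 was the highest control and the lowest CLE9 library. The change was 4.49 ± 0.79 (limma adjusted p = 0.255 by group only, 0.0655 with the block), 5.28 without control replicate 2 (adjusted p = 0.0338) and 5.83 without both replicate 2 libraries (adjusted p = 0.000156). Without any other single library GSTU12 did not pass (limma adjusted p of at least 0.171). GSTU12 was the lowest of the tested members in control replicates 1 and 3, and in the CLE9 libraries of the same numbers its level was near that of GSTU19. GSTU11 (AT1G69930, 26337497 to 26338795) measured 0.362, 6.03 and 0.498 FPKM under water and 6.09, 22.8 and 1.65 FPKM under CLE9. In contrast to GSTU12, it was highest in replicate 2 in both groups, and the groups overlapped. The change of GSTU11 was 1.65 ± 0.98 (limma adjusted p = 0.711 by group only, 0.0664 with the block), and each CLE9 library was above the control of its number. The 2 coding sequences are 56.6% identical, the lowest identity of any tandem neighbours compared.

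GSTU10 (AT1G74590), a single gene on chromosome 1 (28023627 to 28024726), had 2.53, 2.41 and 1.68 FPKM in the water libraries, against 17.4, 3.30 and 23.3 FPKM in the CLE9 libraries. It did not stand out in control replicate 2, and CLE9 replicate 2 lay just above the controls while the other CLE9 libraries lay far above them. The change was 1.97 ± 0.65 (limma adjusted p = 0.465 by group only, 0.135 with the block), and 2.78 without both replicate 2 libraries (adjusted p = 0.00135). GSTU13, known from the immune branch of indole glucosinolate metabolism, was also highest in CLE9 replicates 3 and 1, but its groups overlapped. It reached 54.4, 47.8 and 47.6 FPKM without and 117, 49.99 and 218 FPKM with the peptide. CLE9 replicate 2 lay within the controls, and the change was 1.11 ± 0.52 (limma adjusted p = 0.621), or 1.63 without both replicate 2 libraries (adjusted p = 0.0240).

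GSTU14 (AT1G27140), the tandem neighbour of GSTU13 with 82.0% identity in coding sequence, was lower with CLE9. It was at 6.01, 0.989 and 7.11 FPKM under water, against 1.96 and 2.71 FPKM in CLE9 replicates 1 and 3, and was listed at 0 in CLE9 replicate 2. The groups overlapped through control replicate 2, while each CLE9 library was below the control of its number, by 1.25, 0.99 and 1.13 log2 units. The replicate 2 difference sets 0.989 FPKM against 0, so on this scale it could not have been larger. The standard error with the block rests in part on this bounded difference. The change was -1.12 ± 0.72 with group only (limma adjusted p = 0.726) and -1.12 ± 0.15 with the block, where GSTU14 fell (adjusted p = 0.0423). That call was lost with a pseudocount of 0.1 and the block (adjusted p = 0.112), with no filter and the block (0.0812), and with the block without replicate 1 or replicate 3 of both groups (0.267 and 0.254). GSTU14 also fell without both replicate 2 libraries (change -1.19, adjusted p = 0.0113).

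The array of GSTU1 to GSTU7 on the minus strand of chromosome 2 spans 12617936 to 12632473 and holds 7 genes whose coding sequences are between 61.9% and 85.5% identical. GSTU5 was its most abundant member, at 64.4, 50.3 and 59.4 FPKM under water, against 45.9, 7.68 and 31.2 FPKM with CLE9. Every CLE9 library lay below every control, with CLE9 replicate 2 lowest, the library in which the summed levels of shoot and root markers were also lowest. The GSTU5 change was -1.32 ± 0.62 (limma adjusted p = 0.623 by group only, 0.178 with the block), and -0.69 without both replicate 2 libraries (adjusted p = 0.0957). GSTU7 measured 7.91, 16.2 and 6.53 FPKM under water and 9.77, 15.3 and 10.5 FPKM under CLE9, so it was higher in replicate 2 of both groups than in the other libraries (change 0.27 ± 0.36, adjusted p = 0.871). GSTU7 shares 52 bases with AT2G29410 on the other strand, which stayed between 0.163 and 0.665 FPKM.

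Other genes of the array were near 1 FPKM. GSTU4 was between 0.298 and 2.56 FPKM over the 6 libraries and GSTU6 between 0.276 and 2.42 FPKM. Neither passed with all libraries (changes of 0.29 ± 0.38 and 0.03 ± 0.43, limma adjusted p = 0.871 and 0.992), and GSTU6 was called higher without both replicate 2 libraries (0.66, adjusted p = 0.0419). GSTU1, GSTU2 and GSTU3 did not reach a mean of 1 FPKM. They ranged from 0 to 1.46, from 0 to 0.869 and from 0 to 1.29 FPKM. GSTU1 and GSTU2 were listed at 0 in CLE9 replicate 2, while GSTU3 was at its highest in replicate 2 of both groups, at 1.29 FPKM in control and 0.894 FPKM in CLE9.

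The array of GSTU19 to GSTU23 on the minus strand of chromosome 1 holds GSTU19, an enzyme known for its induction by herbicide safeners and the second most abundant tau gene by mean level after GSTU13. GSTU19 (AT1G78380, 29486413 to 29487906) had 87.7, 87.8 and 94.6 FPKM in the water libraries, against 73.5, 53.5 and 58.1 FPKM in the CLE9 libraries. All CLE9 libraries lay below the controls, which were close together, and replicate 2 of the controls did not stand out. The change was -0.55 ± 0.19 (limma adjusted p = 0.485 by group only, 0.199 with the block), and -0.47 without both replicate 2 libraries (adjusted p = 0.134). GSTU23 was between 0.475 and 2.09 FPKM (change -0.37 ± 0.31, adjusted p = 0.784). GSTU22 was listed at 0 in CLE9 replicate 2 and was between 0.898 and 1.53 FPKM elsewhere. GSTU21 was listed at 0 in 5 libraries and at 0.220 FPKM in control replicate 1.

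GSTU24, GSTU25 and GSTU26 form an array on the plus strand of chromosome 1 from 5869846 to 5876545, and GSTU24 and GSTU25 are known for the detoxification of the explosive TNT. GSTU24 reached 0.953, 2.59 and 0.992 FPKM without and 2.29, 0.299 and 3.58 FPKM with the peptide. Its CLE9 replicate 2 value was the lowest and the other CLE9 values lay above control replicates 1 and 3 (change 0.16 ± 0.52, limma adjusted p = 0.956, or 0.98 without both replicate 2 libraries, adjusted p = 0.0332). GSTU26 measured 12.2, 2.74 and 14.6 FPKM under water and 6.25, 0.557 and 8.05 FPKM under CLE9. It was low in replicate 2 of both groups, as the root markers were, and each CLE9 library was below its control, by 0.87, 1.27 and 0.78 log2 units. The GSTU26 change was -0.97 ± 0.85 (limma adjusted p = 0.792 by group only, 0.0540 with the block), and -0.83 without both replicate 2 libraries (adjusted p = 0.0345). GSTU25 was between 0 and 1.164 FPKM and was not tested. The root markers' part in the GSTU26 values was not tested.

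GSTU16 and GSTU15 lie near each other on the plus strand of chromosome 1 and are 83.1% identical in coding sequence. GSTU16 (21936296 to 21937959) had 11.5, 13.6 and 12.7 FPKM in the water libraries, against 9.33, 7.59 and 8.13 FPKM in the CLE9 libraries, while GSTU15 was listed at 0 in all 6 libraries. The GSTU16 groups did not overlap and neither replicate 2 library stood apart. The change was -0.54 ± 0.15, with the smallest standard error among the tested members (limma adjusted p = 0.372 by group only, 0.152 with the block). GSTU17, also called ERD9 and known from light and drought responses, reached 10.04, 12.9 and 11.9 FPKM without and 13.5, 3.22 and 8.48 FPKM with the peptide. Its neighbour GSTU18 measured 24.9, 17.01 and 25.1 FPKM under water and 26.2, 4.56 and 15.6 FPKM under CLE9. For both, the order of libraries turned on CLE9 replicate 2, and the changes of -0.59 ± 0.45 and -0.76 ± 0.58 (limma adjusted p = 0.764 and 0.767) became -0.03 and -0.29 without both replicate 2 libraries (adjusted p = 0.956 and 0.512).

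Of the remaining single tau genes, GSTU9 had 8.22, 4.94 and 9.73 FPKM in the water libraries, against 12.1, 9.61 and 14.4 FPKM in the CLE9 libraries. Each CLE9 library was above the control of its number, and the groups overlapped (change 0.62 ± 0.28, limma adjusted p = 0.600 by group only, 0.102 with the block). GSTU8 was between 4.20 and 6.80 FPKM in controls and between 4.43 and 8.32 FPKM with CLE9 (change 0.28 ± 0.27, adjusted p = 0.815, or 0.68 without both replicate 2 libraries, adjusted p = 0.0454). GSTU27 was between 25.3 and 35.6 FPKM in controls and between 19.8 and 32.8 FPKM with CLE9 (change -0.32 ± 0.25, adjusted p = 0.771). GSTU28 was low in replicate 2 of both groups and its change of -0.01 ± 0.49 had no stable sign (adjusted p = 0.996).

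In control replicate 2, where touch and wounding genes were high, 6 of 8 phi genes were above the other controls (median 1.01, between -1.99 and 3.38 log2 units). For the tau class it was 10 of 20 (median 0.05, between -1.94 and 2.36), and over all genes tested 6239 of 17812 (median -0.19). In CLE9 replicate 2 against the other CLE9 libraries, 6 of 8 phi genes were higher (median 0.81) and 3 of 20 tau genes were (median -1.12), beside 6410 of 17812 genes tested (median -0.23). The part of whatever raised the touch and wounding genes, and of the lower shoot and root markers, in the difference between the groups was not tested. Within pairs 1, 2 and 3 the median difference of the touch and wounding list was 0.62, 0.03 and 0.73, that of the shoot markers 0.04, -1.68 and -0.52, and that of the root markers -0.97, -1.25 and -0.25. Without both replicate 2 libraries, 5 of the 10 touch and wounding genes were called higher and 2 lower, against 8.41% and 2.95% of all genes.

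Other members of the 2 classes lie outside the 35. Of GSTU20, GSTF4, GSTF5, GSTF11, GSTF12 and GSTF13, 4 were tested and 0 were called with group only, with the block or without both replicate 2 libraries. GSTU20 of the GSTU19 array reached 26.7, 22.5 and 20.6 FPKM without and 21.7, 11.1 and 12.6 FPKM with the peptide (change -0.64 ± 0.28, limma adjusted p = 0.589). GSTF5, which lies beside GSTF6, was between 0.114 and 1.39 FPKM in controls and between 0.857 and 2.104 FPKM with CLE9 (change 0.74 ± 0.36, adjusted p = 0.642). GSTF4 had a change of -0.13 ± 0.27 (adjusted p = 0.929).

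The other transferase classes, with 11 of 12 genes tested, had a median change of -0.17, and 0 were called with group only or with the block. GSTL1, of the lambda class, measured 0.453, 0.488 and 0.233 FPKM under water and 2.37, 1.21 and 2.22 FPKM under CLE9, with no overlap of the groups (change 1.06 ± 0.23, limma adjusted p = 0.284 by group only, 0.0741 with the block). GSTL1 was the 1 gene of this list called without both replicate 2 libraries (limma adjusted p = 0.00651), where 8.41% of all genes were called higher. DHAR1, a dehydroascorbate reductase, had 153, 174 and 157 FPKM in the water libraries, against 122, 131 and 116 FPKM in the CLE9 libraries (change -0.39 ± 0.18, adjusted p = 0.617). GSTZ1, of tyrosine breakdown, had a change of 0.27 ± 0.17 (adjusted p = 0.724).

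Among genes that make, recycle and take apart glutathione, 14 of 15 were tested and their median change was 0.07. With group only 0 were called, and with the block 1 rose, against 1.75% of all genes. Without both replicate 2 libraries 2 were called higher, against 8.41% of all genes. The gene that rose with the block was GGT1, which encodes an apoplastic gamma-glutamyl transpeptidase that degrades glutathione. GGT1 reached 19.6, 105 and 20.2 FPKM without and 58.5, 316 and 66.1 FPKM with the peptide, highest in replicate 2 of both groups (change 1.59 ± 0.91, limma adjusted p = 0.701 by group only, 0.0348 with the block). That call was lost with the block and a pseudocount of 0.1, and with the block and no filter, where 0 genes of the pathway lists were called. PCS1, which makes phytochelatins from glutathione and acts in the indole glucosinolate branch of immunity, measured 20.7, 96.6 and 21.03 FPKM under water and 277, 278 and 332 FPKM under CLE9. Its groups did not overlap, and the change was 3.04 ± 0.61 (adjusted p = 0.255 by group only, 0.0544 with the block). CLT1, a transporter of glutathione and its precursor from the plastid, had a change of 0.55 ± 0.26 (adjusted p = 0.623). GSH1 and GSH2, the 2 enzymes of glutathione synthesis, had changes of 0.31 and 0.21 (adjusted p = 0.864 and 0.815), and are named outside the rule of smallest p.

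Detoxification genes outside the family (13 of 17 tested) had a median change of 0.38. With group only and with the block 0 were called, and without both replicate 2 libraries 5 were called higher, against 8.41% of all genes. CYP81D8, a cytochrome P450 of the xenobiotic response, had 0.858, 5.97 and 0.859 FPKM in the water libraries, against 39.4, 14.1 and 80.5 FPKM in the CLE9 libraries. As for GSTU12, the replicate 2 libraries were the highest control and the lowest CLE9 library (change 3.67 ± 0.78, limma adjusted p = 0.280 by group only, 0.0903 with the block). DTX1, a transporter that exports toxic compounds, reached 2.30, 11.4 and 2.57 FPKM without and 23.7, 17.8 and 17.4 FPKM with the peptide (change 1.96 ± 0.53, adjusted p = 0.355). The glycosyltransferase gene UGT73B5 had a change of 1.62 ± 0.44 (adjusted p = 0.362), and its position in the deposited table overlaps that of UGT73B4. The groups did not overlap for any of CYP81D8, DTX1 and UGT73B5. With CLE9 above, this held for 4 of the 13 tested genes of the list, against 8.51% of all genes. TGA2, TGA5, TGA6 and SCL14, regulators of detoxification genes, had changes between -0.19 and 0.10, and 0 of the 4 were called with group only, with the block or without both replicate 2 libraries.

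**Figure D4:**
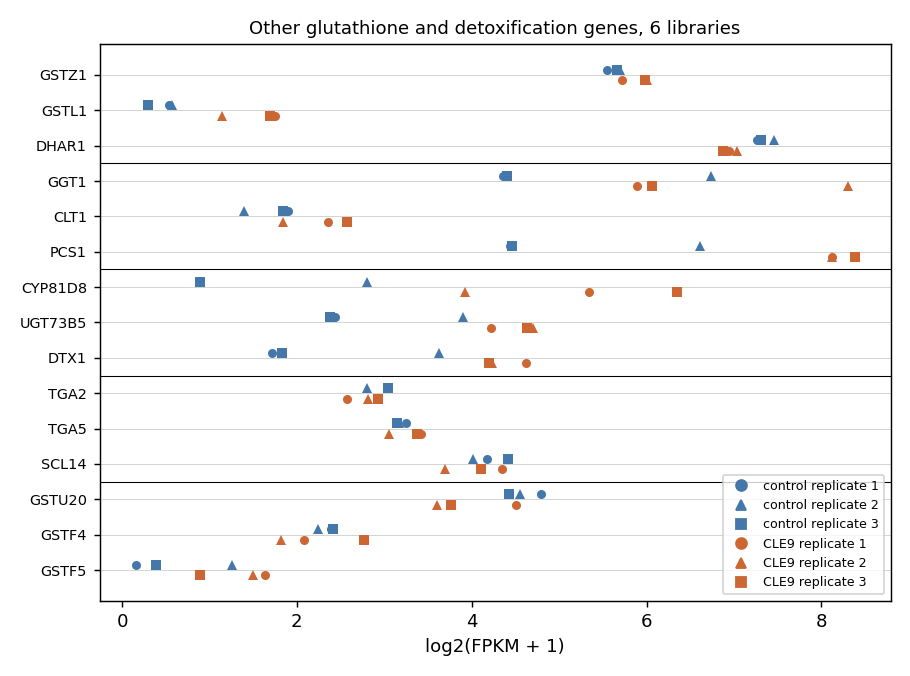
Level of 15 other genes of glutathione use and detoxification in each library as log2(FPKM + 1), the 3 smallest p-values of each of 5 lists (lines separate the lists). The CLE9 libraries of GSTL1, GSTZ1, PCS1, CYP81D8, UGT73B5 and DTX1 lie to the right of all controls, and those of DHAR1 to the left. Those of TGA2, TGA5, SCL14 and the other genes plotted overlap with the controls.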

How the data were processed

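Libraries were made from total RNA of seedlings with the NEBNext Ultra kit, per the labels. The deposited table gives FPKM computed by the authors for 27416 genes in 6 libraries, 1 column each, as its header shows. Build TAIR10 is named in the submitters' processing notes, with DESeq2 1.16.1, featureCounts 1.5.0-p3, StringTie 1.3.3b, HISAT2 2.0.5 and CASAVA 1.8, without roles. The sources used here state neither the tool behind the FPKM nor the use of strand.

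The depth is not in the table. From the spacing of low values in 5061 single-exon genes it was estimated at between 20.5 and 31.6 M fragments per library, where 1 fragment in 1 kb is worth between 0.0316 and 0.0487 FPKM. Between 37.4% and 46.1% of low values lay within 0.1 of a whole fragment (20% would by chance), so reads were not recovered.

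Values were analysed as log2(FPKM + 1), keeping genes that averaged at least 1 FPKM, with limma 3.58.1 in R 4.3.3 (group only, mean-variance trend, two-sided, Benjamini-Hochberg adjustment). The same fit was run on simulated data whose noise was independent between genes, with no shift of the replicate 2 libraries. That setting differs from these libraries, and its outcome is not reported here. The members and the gene lists were chosen with earlier results of these data known. All members are given, and of each other list the 3 tested genes with the smallest p, except for GSH1, GSH2 and TGA6.

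The shared numbers in the labels were taken as pairs. Deviations from the group means were correlated between libraries sharing a number (r = 0.545, 0.743 and 0.583 across genes for replicates 1, 2 and 3). Such deviations cancel within a group, and replicate 2 stood apart in both groups. Replicates 1 and 3 therefore correlate whichever way they are matched, so these values cannot show that their pairs are right. Correlations were higher across numbers for control 1 with CLE9 3 (0.664) and control 3 with CLE9 1 (0.620). Replicate 2 correlated positively only with its own number, and with the others r was between -0.691 and -0.628.

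Upstream windows and coding sequences were read from the RefSeq genome TAIR10.1 with its own annotation, which holds all 35 members, and coding sequences were aligned with Biopython 1.88. Positions of genes are those of the deposited table (TAIR10). Of the genes matched between the 2 sources, 19.01% had the same start and end in both. Coding sequences were compared in place of proteins. The sequence upstream of GSTF6 is not reported here.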

Additional observations from a re-analysis of the deposited data

How the results depend on the processing

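Over all genes tested, the count of calls was 1 with group only, 355 with the replicate block, 2 with quantile normalization, 2024 without both replicate 2 libraries and 4884 with array weights. Leaving out 1 library at a time gave between 0 and 204 calls, the 204 without control replicate 2. With the block it was 2 with a pseudocount of 0.1, 3 without a filter and 356 with copies summed (GSTF6 with GSTF7, GSTF2 with GSTF3), and 0, 1870 and 0 without replicates 1, 2 and 3 of both groups. The combinations with the block were chosen after seeing the data. The cause of these differences was not tested.

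For tau genes the count was 0 with group only, 1 with the replicate block (also with copies summed), 8 without both replicate 2 libraries, 12 with array weights and between 0 and 1 without single libraries. For phi genes it was 0, 0 with the block, 6, 6 and between 0 and 2. For the other genes of the pathway it was 0, 1 with the block (also with copies summed), 8, 14 and between 0 and 4. With the block and a pseudocount of 0.1, or the block and no filter, it was 0 for tau, phi and other genes. With the block and without replicate 2 of both groups it was 7 tau, 6 phi and 8 other genes, and without replicate 1 or 3 it was 0 for each.

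The block changed the call of no member but GSTU14. GSTU6 turned to -0.15 and GSTU28 to 0.16 with a pseudocount of 0.1 (with or without the block), GSTU28 to 0.01 with quantile normalization and GSTF14 to 0.08 with array weights. Leaving out single libraries gave between -0.07 and 0.66 for GSTU4, -0.22 and 0.49 for GSTU6, -0.22 and 0.69 for GSTU24, -0.50 and 0.28 for GSTU28, -0.20 and 1.09 for GSTF9 and -0.86 and 0.45 for GSTF14. Outside the block fits that left out a replicate of both groups, the other 22 tested members kept their sign under each alternative run. In those block fits the sign was compared for GSTU14 alone, which stayed below 0.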
